A study of Rattus norvegicus with 20 samples.

Results

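The keratin family was followed in mammary adenocarcinomas and normal mammary tissue of irradiated rats. Its members were the probes whose RefSeq transcript carried a symbol of Krt and a number. The rule found 28 of 41012 probes, for 27 of 36912 genes, and all 27 keratins were among the 36038 genes tested. Krt18 had 2 probes and every other keratin had 1. By textbook class, 4 were keratins of simple epithelia, 4 of the basal layer, 7 of squamous epithelia, 6 of the hair shaft and 5 of the hair follicle sheath, and Krt90 was left without a class. Several well-known members, such as Krt7, Krt10 and Krt6a, were not analysed here.

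All 20 samples came from female Jcl:SD Sprague-Dawley rats given 4 Gy of Cs-137 gamma rays to the whole body (0.5 Gy/min) at 7 weeks of age and then followed for 30 weeks, so the normal tissue also came from irradiated rats. Obesity-prone (OP) and obesity-resistant (OR) rats ate a diet with 45 kcal% fat and were told apart by body weight, and lean controls (LC) ate 10 kcal%. The cancers came from OP (6), OR (3) and LC rats (3). Normal tissue came from 3 age-matched OP, 2 OR and 3 LC rats. The adenocarcinomas had been chosen for even histology without necrosis or marked infiltration. Each sample was 1 one-colour Agilent array, and since the labels do not tie samples to animals, the p-values cover the spread among these arrays, which may be technical.

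Keratins are the intermediate filament proteins of epithelial cells, and a filament is built from type I and type II keratins in pairs. In the mammary gland, luminal cells are known for Krt8, Krt18 and Krt19, and basal or myoepithelial cells for Krt5, Krt14 and Krt17. Squamous keratins mark stratified epithelia such as epidermis and oral mucosa, and hair keratins build the hair shaft and the sheaths around it.

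The genes of the type II keratins on the array lie on rat chromosome 7 (13 genes, with the type I gene Krt18 among them) and the other type I genes on chromosome 10 (14 genes). Of the 27 genes, 20 had a promoter in the RefSeq table for build GRCr8. The 250 bases before the start are shown for 4 keratins the results turn on: the partners Krt8 and Krt18, which were higher in cancers and have 1 gene between them, the basal keratin Krt5, which was higher, and Krt24, which had the largest fall. Capitals mark matches, on either strand, to TATAAA (the TATA box), GGGCGG (the GC box) or CCAAT (the CCAAT box).
Krt8, chr7:135010340-135010589, minus strand: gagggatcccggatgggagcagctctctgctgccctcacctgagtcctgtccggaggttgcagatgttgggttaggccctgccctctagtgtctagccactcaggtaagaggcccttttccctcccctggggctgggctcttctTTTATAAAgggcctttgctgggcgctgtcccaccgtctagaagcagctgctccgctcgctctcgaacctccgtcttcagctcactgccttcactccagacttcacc
Krt18, chr7:135035918-135036167, plus strand: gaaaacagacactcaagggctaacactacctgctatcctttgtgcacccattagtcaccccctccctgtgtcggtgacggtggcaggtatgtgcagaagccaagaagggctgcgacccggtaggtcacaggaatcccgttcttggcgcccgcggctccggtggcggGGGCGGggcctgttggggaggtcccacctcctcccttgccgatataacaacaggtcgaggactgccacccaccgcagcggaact
Krt5, chr7:134730570-134730819, minus strand: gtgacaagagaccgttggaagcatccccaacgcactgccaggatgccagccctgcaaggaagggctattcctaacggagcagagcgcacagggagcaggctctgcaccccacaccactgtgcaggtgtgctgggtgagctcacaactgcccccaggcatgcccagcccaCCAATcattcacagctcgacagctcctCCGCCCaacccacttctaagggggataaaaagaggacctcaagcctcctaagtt
Krt24, chr10:84733487-84733736, minus strand: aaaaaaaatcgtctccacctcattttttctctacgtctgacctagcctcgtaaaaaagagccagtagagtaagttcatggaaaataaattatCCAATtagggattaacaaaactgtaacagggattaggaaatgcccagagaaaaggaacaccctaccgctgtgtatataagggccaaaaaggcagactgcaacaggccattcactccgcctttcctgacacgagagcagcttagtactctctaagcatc

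TATAAA was found in 10 of the 20 keratin promoters and in 12.9% of all 33469 promoters of the same length. GGGCGG was found in 3 and CCAAT in 9, against 30.5% and 34.0% of all. Krt8 held TATAAA at -104 from the start and, overlapping it, the reverse match at -106. Krt18 held GGGCGG at -84, Krt5 held CCAAT at -81 and the reverse of GGGCGG at -54, and Krt24 held CCAAT at -158. No motif of these 3 was shared by Krt8 and Krt18. These matches describe the letters in the window and are no evidence of binding.

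Values are log2 of the background-corrected signal, quantile-normalised so that every array has the same distribution, and a difference of 1 is a doubling. The array scanner's call "well above background" was made for 61.3% to 79.3% of all probes on a cancer array and for 87.7% to 97.7% on a normal tissue array. The same call covered 12 to 22 of the 28 keratin probes on cancer arrays and 26 to 28 on normal arrays. As many as 10 keratins were well above background on all 20 arrays: Krt1, Krt5, Krt8, Krt14, Krt15, Krt17, Krt18, Krt19, Krt33a and Krt76. Another 5 (Krt26, Krt34, Krt39, Krt73 and Krt84) had no cancer array where the call was made. All 8 normal tissues and 4 cancers were scanned on 1 day, and the other 8 cancers on another.

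The contrast of cancers with normal tissue asked which keratins differ between tumour and gland. Simple keratins Krt8, Krt18 and Krt19, basal keratins Krt5 and Krt15 and the hair keratin Krt33a were at least 2-fold higher in cancers, and Krt24 was at least 2-fold lower. Of the 27 keratins, 8 were higher (29.6%, against 29.0% of all genes tested), 12 were lower (44.4%, against 33.5%) and 7 did not pass an adjusted p of 0.05 in limma, a test that 62.5% of all genes passed in either direction. The median keratin differed by 0.03 and the median gene by -0.03. A change of at least 2-fold was called for 6 keratins upward (22.2%, against 5.75% of genes) and 1 downward (3.70%, against 5.93%). Cancers and normal tissues did not overlap for 11 keratins (40.7%, against 20.2% of all genes), with 6 higher in cancers (8.60% of all genes) and 5 lower (11.6%). All 8 higher keratins were well above background on 12 of 12 cancer arrays, whereas the 12 lower ones were so on 0 to 11. Krt26, Krt34 and Krt73 are among the 12, though no cancer array had them well above background. They entered the test through normal tissue alone, so the 44.4% is no count of measured falls. How many of all lower genes entered in this way was not counted.

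**Figure D1:**
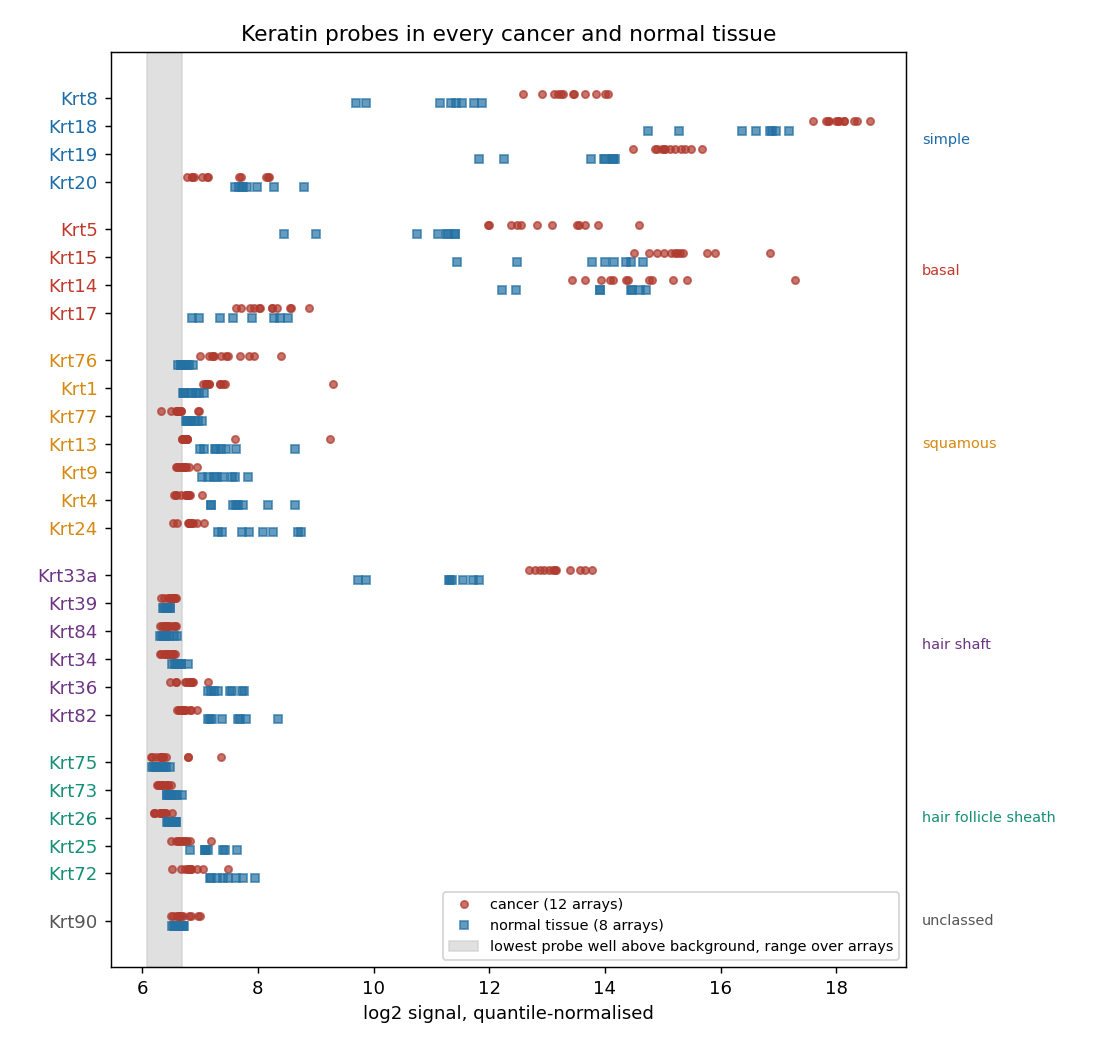
Log2 signal of each keratin in the 12 cancers (circles) and 8 normal tissues (squares), by class, with the signal at which probes on the arrays begin to be well above background in grey (6.08 to 6.69). Krt8, Krt18, Krt19, Krt5 and Krt33a lie to the right in cancers without overlap, and most squamous, hair and sheath keratins lie near the grey band in cancers.

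The luminal partner keratins rose together. Krt8, the type II keratin of simple epithelia, ran from 12.59 to 14.05 in cancers (median 13.36) and from 9.70 to 11.87 in normal tissue (median 11.38). Its difference was 2.34 (SE 0.249, 5.05-fold, limma adjusted p = 9.81e-07). Krt18, its type I partner, ran from 17.59 to 18.58 in cancers (median 18.04) and from 14.75 to 17.18 in normal tissue (median 16.74), a difference of 1.68 (SE 0.193, limma adjusted p = 2.05e-06). The lowest cancer exceeded the highest normal tissue for both, and also for the second Krt18 probe (15.90 to 17.18 against 12.40 to 15.18). Krt19, a type I keratin of ducts, ran from 14.48 to 15.69 (median 15.08) against 11.82 to 14.17 (median 13.99). It rose by 1.54 (SE 0.232, limma adjusted p = 2.88e-05), again without overlap. The lowest values of all 3 keratins were in LC normal replicates 1 and 3.

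Krt20, known for the intestine and urothelium, went the other way within this class, at 6.77 to 8.19 in cancers (median 7.13) and 7.60 to 8.80 in normal tissue (median 7.78). The difference of -0.61 passed (SE 0.229, limma adjusted p = 0.0282), but the call was lost with a slide block (limma adjusted p = 0.0637), a scan day block (0.0785) and array weights (0.0539). It also ended without any 1 of 5 samples: OR cancer replicates 1 and 2, OP normal replicate 2, OR normal replicate 2 and LC normal replicate 1 (adjusted p from 0.0559 to 0.0858).

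Basal keratins were split. Krt5, the type II keratin of basal cells, ran from 11.98 to 14.59 in cancers (median 12.95) and from 8.45 to 11.41 in normal tissue (median 11.19). No cancer fell within the normal range, and the difference was 2.42 (SE 0.391, 5.36-fold, limma adjusted p = 5.63e-05). Its type I partner Krt14 ran from 13.43 to 17.28 (median 14.38) against 12.22 to 14.70 (median 14.19), with most samples of both tissues in the same range. Its difference of 0.75 did not pass (SE 0.416, 95% interval -0.13 to 1.64, limma adjusted p = 0.126), and it stood at -0.05 with slide as a block and -0.07 among samples of the second scan day alone. With normexp and 75th-percentile scaling Krt14 passed (0.86, adjusted p = 0.0462).

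Krt15, a basal keratin of stratified epithelia and the hair follicle, ran from 14.51 to 16.86 in cancers (median 15.23) and from 11.44 to 14.65 in normal tissue (median 14.08). Only the upper end of normal tissue met the lower end of the cancers. It rose by 1.61 (SE 0.364, limma adjusted p = 0.00108). On the second scan day alone it no longer passed (1.14, adjusted p = 0.118). Krt17, a type I keratin of basal and stressed epithelium, was at 7.62 to 8.88 against 6.86 to 8.53, a difference of 0.41 that did not pass (limma adjusted p = 0.104). Under normexp with 75th-percentile scaling its sign turned (-0.085), and without LC normal replicate 2 it passed (0.52, adjusted p = 0.0386).

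**Figure D2:**
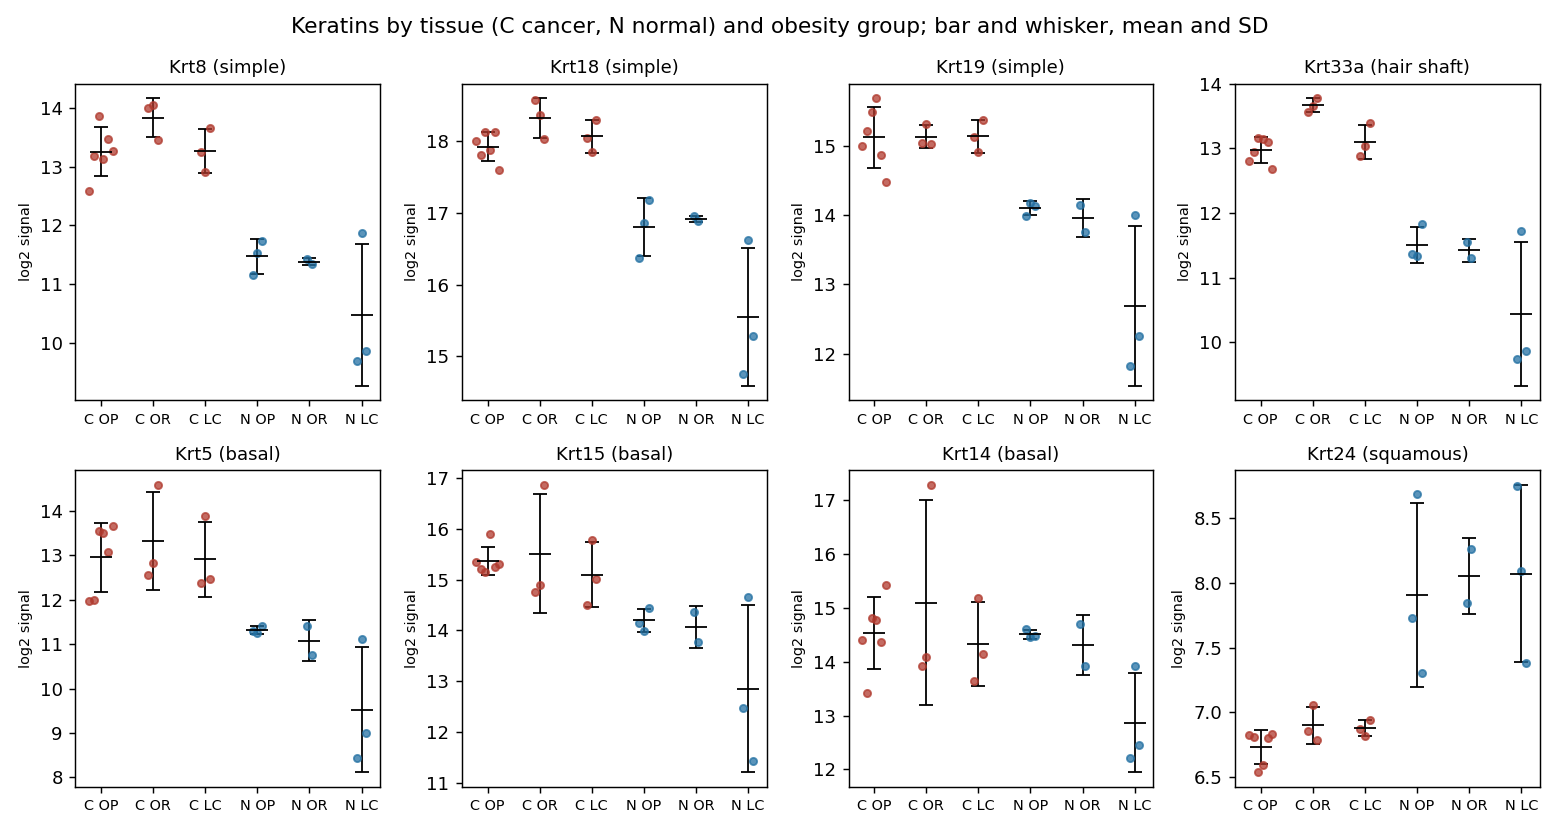
Log2 signal of 8 keratins in each array by tissue and obesity group (C, cancer; N, normal; 6, 3, 3, 3, 2 and 3 arrays), with group mean and SD. LC normal tissue spans the widest range for Krt8, Krt18, Krt19, Krt33a, Krt5 and Krt15, and OR cancers include a single high array for Krt14, Krt5 and Krt15.

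These rises were also read within the slides that held both tissues, which had 2, 1 and 1 cancers. Within slides 1, 2 and 3 Krt8 differed by 2.49, 1.57 and 3.02, Krt18 by 2.46, 1.005 and 2.13, and Krt19 by 2.15, 1.11 and 1.66. Krt5 differed by 2.31, 0.73 and 2.16 and Krt15 by 1.61, 0.87 and 1.54, all in the same direction. For Krt14 the values were 0.61, -0.93 and 0.31, which is not 1 direction. Slides 1 and 3 held LC normal replicates 1 and 3, the lowest normal tissues for these keratins, and slide 2 held neither. With slide as a block Krt8 stood at 2.50, Krt18 at 1.94, Krt19 at 1.69, Krt5 at 1.85 and Krt15 at 1.25 (adjusted p = 0.0493 for Krt15). The block sets only 4 cancers directly against normal tissue.

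The balance of basal to luminal keratins was taken as a difference of log2 values within each array, tested by an exact two-sided permutation test over 12 cancers and 8 normal tissues with adjustment over 3 pairs. Krt5 relative to Krt8 ran from -1.44 to 1.15 in cancers and from -1.25 to 0.14 in normal tissue, and the means differed by 0.13 (exact permutation adjusted p = 0.709). Krt14 relative to Krt18 ran from -4.66 to -0.74 in cancers and from -2.97 to -1.77 in normal tissue, a shift of -0.92 that missed the threshold (exact permutation adjusted p = 0.0629). The highest cancer was OR replicate 3, and without it the shift was -1.17 (exact permutation adjusted p = 0.00331). Without OP cancer replicate 6 it was -1.04 (exact permutation adjusted p = 0.0337). It was -1.75 on the second scan day alone (exact permutation adjusted p = 0.00606) and -0.58 under normexp with 75th-percentile scaling (exact permutation adjusted p = 0.254). Krt17 relative to Krt19 ran from -7.59 to -6.14 against -6.83 to -4.96, and the shift of -1.15 passed (exact permutation adjusted p = 0.000976). Each shift shows unequal change of the members of a pair, not which of them moved.

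The squamous keratins were dim in both tissues and mostly lower in cancers. Krt24, a type I keratin, ran from 6.54 to 7.06 in cancers (median 6.82) and from 7.30 to 8.75 in normal tissue (median 7.97), and fell by 1.17 (SE 0.175, limma adjusted p = 2.61e-05). No cancer reached the normal range, and Krt24 was well above background on 9 of 12 cancer arrays. Krt4 of the oesophageal and oral mucosa (-0.96), Krt9 of the palms and soles (-0.65) and Krt77 (-0.23) were also lower, well above background on 5, 6 and 4 cancer arrays. The Krt77 call was lost with a slide block (-0.16, adjusted p = 0.292), a scan day block (-0.18, adjusted p = 0.159), on the second scan day alone (-0.19, adjusted p = 0.158) and without OR normal replicate 2 (-0.20, adjusted p = 0.0712). Krt13, the type I partner of Krt4, had a difference of -0.32 that did not pass (limma adjusted p = 0.255). It passed at -0.55 without OR cancer replicate 3 (adjusted p = 0.00402), at -2.46 with the processed signal scaled to the 75th percentile (adjusted p = 1.16e-05) and at -1.15 with normexp and that scaling (adjusted p = 0.000394).

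Krt76 (0.78) and Krt1, the type II keratin of the upper epidermis (0.60), passed upward on the quantile scale, but the direction of both depended on the scaling. With the processed signal scaled to the 75th percentile they stood at -0.04 and -0.64, and with normexp and that scaling at -0.14 and -0.35. With a slide block they were 0.41 (adjusted p = 0.0972) and 0.31 (adjusted p = 0.407). Krt1 was also lost without OR normal replicate 2 (0.57, adjusted p = 0.0528).

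**Figure D3:**
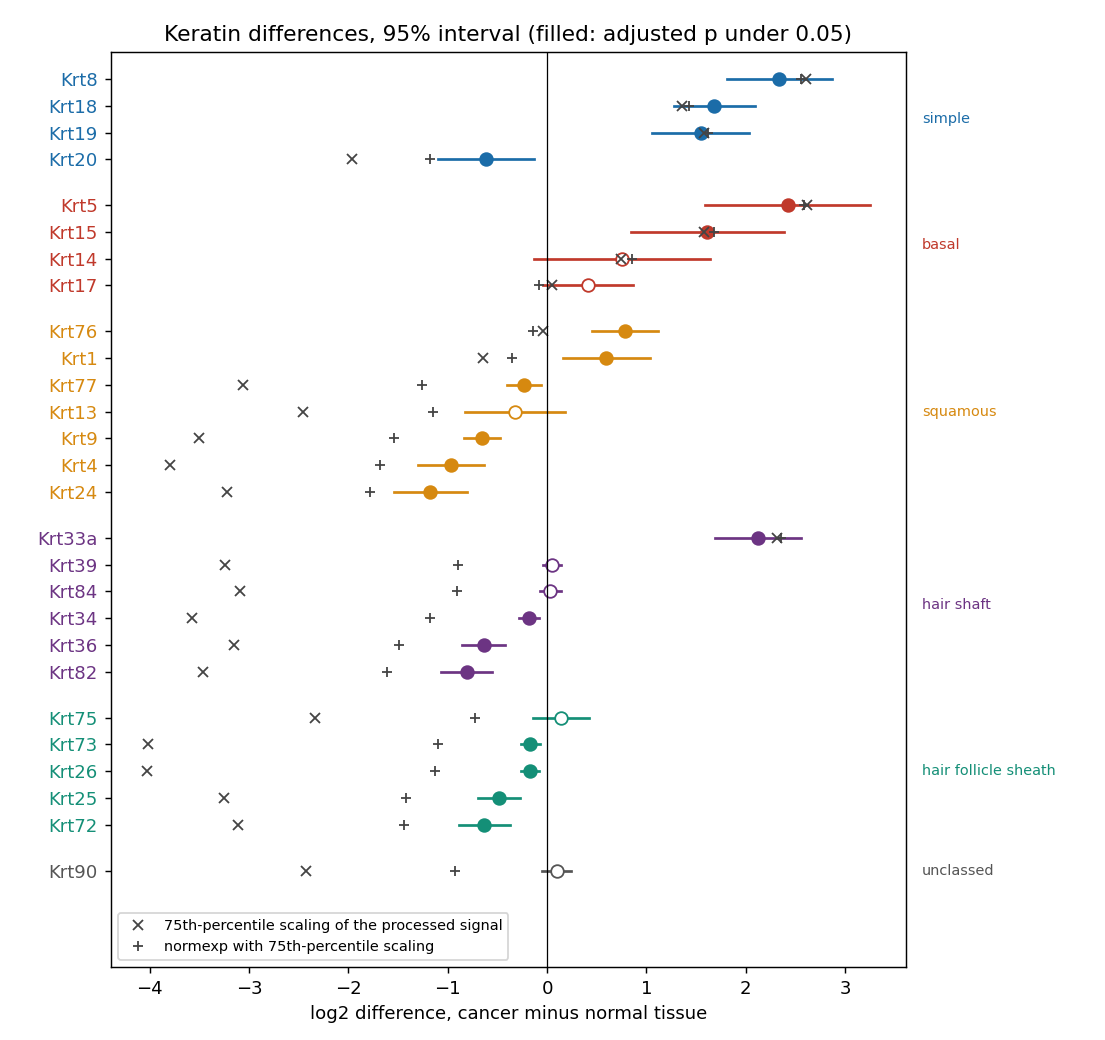
Log2 difference, cancer minus normal tissue, of the 27 keratins with its 95% interval (filled circles pass an adjusted p of 0.05), and the same difference under the 2 scalings to the 75th percentile (crosses and plus signs). Krt8, Krt18, Krt19, Krt5, Krt15, Krt14 and Krt33a keep their side under both, while Krt76 and Krt1 change side and dim keratins move to the left.

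The hair keratins divided into 1 bright member and the rest. Krt33a, a type I keratin of the hair shaft, ran from 12.68 to 13.78 in cancers (median 13.12) and from 9.73 to 11.83 in normal tissue (median 11.34). All 12 cancers exceeded all 8 normal tissues. It rose by 2.13 (SE 0.206, 4.36-fold, limma adjusted p = 3.70e-07), the smallest adjusted p of the 27 keratins, and differed by 2.29, 1.41 and 2.57 within slides 1, 2 and 3. The level rests on 1 probe, whose sequence was not used here, and hybridisation to related type I keratins was not tested.

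The other 5 hair shaft keratins lay between 6.30 and 8.35 on all 20 arrays. The cuticle keratin Krt82 fell by 0.81 (SE 0.121, limma adjusted p = 2.58e-05) and Krt36 by 0.64 (SE 0.101, limma adjusted p = 4.63e-05), neither with overlap. Krt34 was 0.18 lower (limma adjusted p = 0.00257), but as no cancer array had it well above background, the fall is only bounded, at least 1.06-fold. Krt39 and Krt84 did not pass (limma adjusted p = 0.301 and 0.619). Neither was well above background on any of the 12 cancer arrays, so their differences have no size or direction that can be read.

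Of the 5 sheath keratins, Krt72 (-0.63) and Krt25 (-0.48) of the inner root sheath were lower, and Krt75 of the companion layer (0.14, limma adjusted p = 0.368) did not pass. Krt26 and Krt73, also of the inner root sheath, passed the test downward and count among the 12, but no fall is shown for either. Both were well above background in 0 of 12 cancers, and their normal tissue means lay below the cancer arrays' mean bound, the lowest signal well above background. Both calls were lost on the second scan day alone (adjusted p = 0.1002 and 0.0822), and that of Krt73 also with a slide or a scan day block (adjusted p = 0.0609 and 0.0501). Krt90 was at 6.50 to 6.99 against 6.52 to 6.73 (0.10, limma adjusted p = 0.220).

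Other genes of the hair follicle and the cornified layer were read beside the keratins. Of 6 tested hair follicle genes that are no keratins, 3 were higher and 1 was lower: Msx2, a homeobox factor (2.11, limma adjusted p = 5.37e-07), Padi3, a peptidylarginine deiminase of the hair follicle (4.04, adjusted p = 2.59e-06), Lef1, a Wnt effector (1.36, adjusted p = 0.00958), and Krtap1-5, a keratin-associated protein (-0.89, adjusted p = 7.50e-07). None of the 4 tested cornification genes passed (0, limma), and by unadjusted p the count under 0.05 was also 0. Calml3 was at 0.17, Sbsn at -0.33, Ivl at -0.02 and Tgm1 at -0.10. Ivl was well above background on only 1 cancer array, so its difference has no size that can be read.

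Genes that anchor keratin filaments were higher in cancers or did not pass. Of 5 tested desmosome and hemidesmosome genes, 3 were higher and 0 lower: Jup, plakoglobin (1.44, limma adjusted p = 9.90e-06), Dsc2, a desmosomal cadherin (1.79, adjusted p = 2.10e-05), and Itgb4, an integrin of hemidesmosomes (0.78, adjusted p = 0.00525). Plec, plectin, was at 0.45 (adjusted p = 0.141). The shares of all genes, 29.0% higher and 33.5% lower, stand beside each of these lists. Of 10 other intermediate filament genes, which did not exceed either share, 1 was higher, the nuclear lamin Lmnb1 (0.69), and 3 were lower: vimentin (Vim, -1.03), peripherin (Prph, -1.41) and the neurofilament gene Nefh (-0.95). Of 7 epithelial transcription factors 6 were higher, among them Klf5 (1.09), Gata3 (1.37) and Elf3 (0.85), and 1, Klf4, was lower (-1.86).

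Markers of the cell types in the tissue were read in the same contrast. All 8 tested luminal markers that are no keratins were higher in cancers, with a median of 1.40. Those with the smallest p were Epcam (2.50), Gata3 (1.37), Cldn7 (3.19) and Cdh1 (1.43). Of 4 myoepithelial markers, Tp63 was higher (1.02) and 3, Oxtr, Tagln and Cnn1, were lower (-1.74, -0.85 and -0.78). All 11 adipocyte markers were lower, with a median of -5.49, and 5 of 6 fibroblast and matrix markers were lower. The summed signal of the luminal list ran from 15.55 to 16.58 in cancers and from 12.69 to 15.19 in normal tissue on the log2 scale. In bulk tissue, fewer cells of a type and less RNA per cell cannot be told apart, and the part of cell composition in the keratin differences was not tested.

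Within the obesity groups the same contrast was taken separately. Of the 27 keratins 6 were higher and 8 lower in OP rats (21.0% and 23.5% of all genes), 5 and 4 in OR rats (14.0% and 14.5%), and 7 and 11 in LC rats (7212 of the 36038 genes, and 23.6%). Either direction was called for 44.5%, 28.6% and 43.6% of all genes. Leaving out OP normal replicate 1 or 3 left 3 higher in OP, leaving out OR normal replicate 1 or 2 left 2 higher in OR, and the 4 lower in OR became 0 to 2 without any 1 of the OR samples. The 11 lower in LC became 6 or 7 without any 1 LC cancer or LC normal replicate 1. Krt8, Krt18, Krt5 and Krt33a passed upward in each of the 3. Krt8 rose by 1.78 in OP (SE 0.373), 2.45 in OR (SE 0.482) and 2.79 in LC (SE 0.431), with limma adjusted p = 0.00142, 0.00172 and 0.000144. Krt19 rose by 1.02 in OP and by 2.44 in LC, and had a value of 1.17 in OR (limma adjusted p = 0.0611). For Krt14 the values were 0.02, 0.79 and 1.46, and none of them passed.

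The difference of these effects between obesity groups was itself tested, and 0 of the 27 keratins and 0 of all genes passed in limma in any of the 3 tests. By unadjusted p under 0.05, 0 keratins stood out for OP against OR, 4 for OP against LC and 2 for OR against LC (966, 3069 and 2927 of all genes). The smallest p in OP against LC was that of Krt18 (-1.40, 95% interval -2.34 to -0.47, limma adjusted p = 0.309). Without LC normal replicate 2, 3 keratins passed in that test: Krt18 (-1.94, adjusted p = 0.0176), Krt19 (-2.07, adjusted p = 0.0260) and Krt33a (-1.84, adjusted p = 0.0100). The 2 LC normal tissues then left are replicates 1 and 3. How many of all genes passed in that fit is not given here, so these calls are not set apart as particular to keratins.

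Among normal tissues those 2 samples stood below the others for the bright keratins. In LC replicates 1 and 3 Krt8 was at 9.70 and 9.87, against 11.15 to 11.87 in the other 6 normal tissues. Krt5 was at 8.445 and 8.998 against 10.76 to 11.41, and Krt14 at 12.22 and 12.46 against 13.92 to 14.70. Krt33a was at 9.73 and 9.86 against 11.30 to 11.83. The same held for Krt15, Krt17, Krt18 and Krt19 and for none of the other 19 keratins. How many of all genes separate in this way was not counted. LC normal replicate 1 was instead the highest normal tissue for Krt4, Krt9, Krt20, Krt24, Krt26, Krt34, Krt36, Krt76 and Krt82. The summed luminal markers were at 12.69 in LC normal replicate 1, 13.32 in replicate 3 and 14.85 in replicate 2. They ran from 14.81 to 15.19 in OP and from 14.87 to 15.07 in OR normal tissue. The part of these markers in the keratin levels was not tested. Both samples were also left out, in an alternative added after seeing the data. It kept 1 LC normal tissue, assumed to vary like the other groups. Krt8 then stood at 1.87, Krt18 at 1.33, Krt19 at 1.11, Krt5 at 1.89, Krt15 at 1.014 and Krt33a at 1.70, all still passing, while Krt1, Krt20 and Krt77 no longer passed. For LC rats alone that fit rests on the 1 LC normal tissue left, so no counts of calls are given.

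Normal tissues were compared between obesity groups by limma, and 0 keratins and 0 of all genes passed. The count of keratins with an unadjusted p under 0.05 was 0 for OP against OR, 4 for OP against LC and 2 for OR against LC (216, 3176 and 3241 of all genes). In OP against LC, Krt14 differed by 1.65 (95% interval 0.56 to 2.73, limma adjusted p = 0.333), Krt5 by 1.80 (adjusted p = 0.486) and Krt18 by 1.26 (adjusted p = 0.501). In OR against LC, Krt14 differed by 1.44, Krt18 by 1.37 and Krt5 by 1.56 (adjusted p from 0.464 to 0.619). The 3 smallest p-values in OP against OR were those of Krt84 (0.14), Krt34 (-0.08) and Krt90 (0.08), each with an adjusted p of 1.

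Cancers were compared between obesity groups to find whether the tumours differ by diet and weight, and again 0 keratins and 0 of all genes passed in limma. By unadjusted p under 0.05 the counts of keratins were 5 for OP against OR, 1 for OP against LC and 3 for OR against LC (3960, 2636 and 1521 of all genes). Krt33a, shown for its small p, was at 12.68 to 13.16 in the 6 OP cancers. It was at 13.57, 13.65 and 13.78 in OR and at 12.88, 13.04 and 13.40 in LC cancers. The OR cancers did not overlap either group, but how many of all genes separate in this way was not counted. The difference was -0.69 for OP against OR (SE 0.135, 95% interval -0.99 to -0.40, limma adjusted p = 0.366) and 0.56 for OR against LC (SE 0.156, 95% interval 0.22 to 0.90, adjusted p = 0.995). Krt82 differed by -0.17 in OP against OR and by 0.22 in OR against LC, well above background on only 5 of the 12 cancer arrays. For Krt13 the values were -1.14 and 1.14, with OR cancers at 7.59, 6.77 and 9.24. In OP against LC the smallest p-values were those of Krt26, which was not well above background in any cancer and is given no difference, Krt20 (0.60) and Krt24 (-0.14), with adjusted p from 0.652 to 0.792. The comparisons share groups: OR enters 2 of the 3, and LC likewise. Obesity group was largely bound to slide: 4 of 6 OP cancers were alone on slide 4, and 2 OR and 2 LC cancers made up slide 5. With a slide block Krt33a stood at -0.58 for OP against OR (limma adjusted p = 0.578), and within slide 5 its OR cancers exceeded the LC cancers by 0.50.

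OR cancer replicate 3 stood apart from the other 11 cancers. It was the highest cancer for 10 of the 27 keratins, among them all 4 basal ones, and for 9.64% of all genes tested. The next were OR cancer replicate 2, highest for 6 keratins and 9.61% of all genes, and OP cancer replicate 4, for 4 keratins and 5.51%. OR cancer replicate 3 led narrowly for Krt20 (8.19 against at most 8.17) and Krt90 (6.99 against at most 6.97). Krt14 was at 17.28 against 13.43 to 15.41 in the others, Krt15 at 16.86 against 14.51 to 15.90, and Krt5 at 14.59 against 11.98 to 13.88. The squamous keratins Krt1 (9.29 against 7.04 to 7.43) and Krt13 (9.24 against 6.68 to 7.59) and the companion layer keratin Krt75 (7.36 against 6.15 to 6.78) were high in it as well. Krt8 (13.44), Krt18 (18.03) and Krt19 (15.02) lay within the range of the other cancers. The 2 tested skin markers, Sbsn and Ivl, had a summed log2 signal of 11.40 in this sample and 7.78 to 9.07 in the other cancers. Nearly all of the 11.40 was Sbsn, whose highest cancer value was 11.33. Ivl reached at most 7.02 in any cancer and was well above background on only 1 cancer array. The part of these markers in the keratin levels was not tested. Without this sample 8 keratins were higher in cancers and 13 lower, and the shares of all genes in that fit are not given here.

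**Figure D4:**
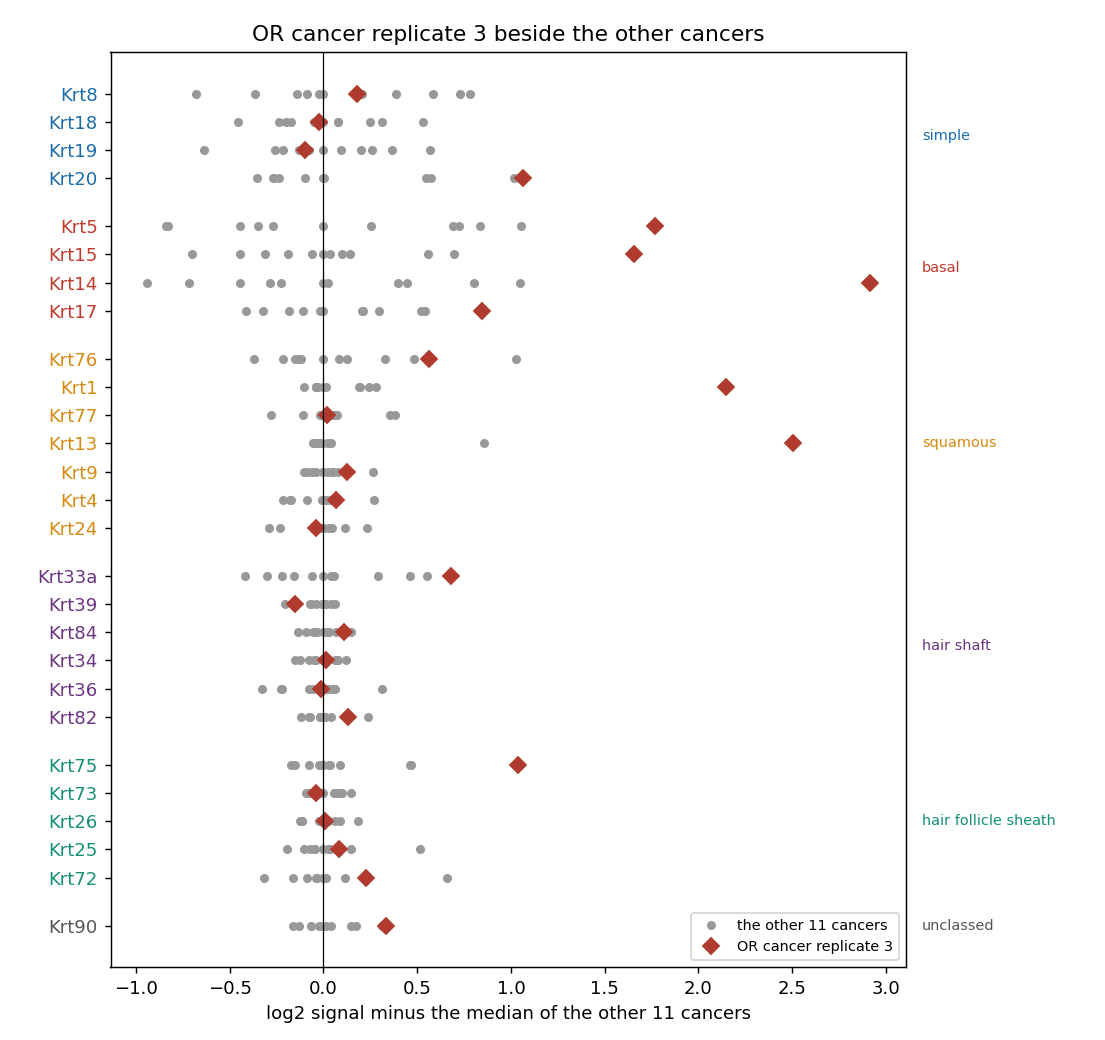
Log2 signal of each keratin in the 12 cancers, relative to the median of the 11 cancers other than OR replicate 3 (diamonds). The diamond lies far to the right for Krt14, Krt13, Krt1, Krt5, Krt15 and Krt75 and within the other cancers for Krt8, Krt18 and Krt19.

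Filament partners were compared across the 12 cancers for the 3 textbook pairs with both members tested. Krt5 and Krt14 varied together (Pearson r = 0.886, Spearman rho = 0.825, permutation adjusted p = 0.00015 and 0.00405). The relation held without the 2 cancers farthest from the median of Krt5 (r = 0.961), without OR cancer replicate 3 (r = 0.855, permutation adjusted p = 0.00282) and among the 8 cancers of the first scan day (r = 0.922). Krt8 and Krt18 gave r = 0.712 and rho = 0.799 (permutation adjusted p = 0.0136 and 0.00405), 0.803 without the 2 farthest cancers and 0.782 on the first scan day. Under 75th-percentile scaling that r was 0.322 and no longer passed (permutation adjusted p = 0.308). Krt4 and Krt13 gave r = 0.25 and rho = 0.706 (permutation adjusted p = 0.392 and 0.0129), and r = 0.438 without the 2 farthest cancers. The second scan day held 4 cancers, too few for a value.

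The 10 keratins above background on all arrays give 45 pairs, of which 32 had r above 0. Pearson's r passed a permutation p adjusted over the 45 in 6 pairs, which are the 6 pairs among Krt5, Krt14, Krt15 and Krt17 (r from 0.744 to 0.886). By Spearman's rho, adjusted likewise, 3 passed: Krt14 with Krt17 (0.923), Krt14 with Krt5 (0.825) and Krt8 with Krt18 (0.799). Without the 2 farthest cancers, the r of Krt15 with Krt5 was 0.505 and that of Krt15 with Krt17 was 0.571. Krt33a gave r = 0.698 with Krt18 and 0.684 with Krt8 (permutation adjusted p = 0.0628 and 0.0702), which did not pass. Between basal and luminal keratins r ran from -0.395 for Krt15 with Krt18 to 0.0743 for Krt5 with Krt8, and none passed. Krt1 with Krt14 gave r = 0.791 but rho = 0.0699, and r = -0.508 without the 2 farthest cancers, so that relation rests on those samples.

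**Figure D5:**
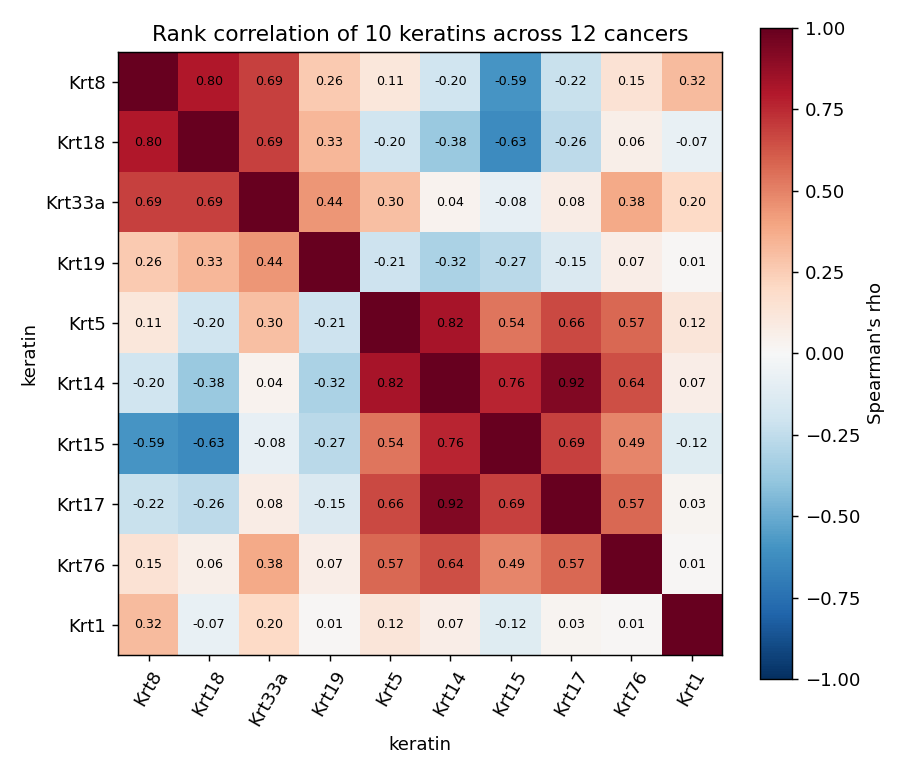
Spearman's rho between 10 keratins across the 12 cancers, from -1 (blue) to 1 (red). Krt5, Krt14, Krt15 and Krt17 form a red block, Krt8 with Krt18 and Krt33a a second one, and the squares between both blocks are pale or blue.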

How the data were processed

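Cyanine 3-labelled RNA of 20 samples was hybridised to Agilent rat arrays, per the labels' protocols. The deposited scanner files hold spot intensity, local background intensity and flags of other kinds (0 or 1), per the file headers, which name Feature Extraction 9.5.1.1, whereas the submitters' processing notes name 10.7.3.1. The authors' value table as deposited holds log2 values, a scale found by setting it against the scanner files. It covers 10 of the keratins and was an alternative.

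Median spot signals were corrected by normexp (offset 50), quantile-normalised and fitted in limma 3.58.1 (R 4.3.3) with 1 mean per group, since the planned mean signal was not in the files used here. Cancer against normal averaged the 3 obesity groups. Cancers and normal tissues were also fitted alone. Of 41012 probes, 121 with a non-uniformity mark and 825 not well above background on 0.5 of any group's arrays were left out; the brightest probe stood for a gene. Benjamini-Hochberg adjustment ran over 36038 genes (threshold 0.05). Symbols came from RefSeq accessions (10746 of 11186 matched). The fit was tested on simulated data. Within-array differences used exact permutation and correlations 100000 permutations. At-least folds set the brighter mean against the higher of the dim signal and the lowest signal well above background. The number of arrays limits the precision: at the median gene the SE was 0.0965 for cancer against normal.

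The keratins and gene lists were chosen with earlier results of these data known. Every keratin is accounted for. Values by sample are given for those past the threshold with a difference of at least 1, and for Krt5, Krt8, Krt14, Krt18 and Krt19; among cancers or normal tissues, for the 3 smallest p-values; of each other list, up to 4 genes with the smallest p. Same-numbered samples did not deviate together (median r -0.052, against 0.033 for other numbers). This cannot show whether same-numbered samples share an animal, and the main fit did not pair samples. Alternatives were other scalings, filters, slide, scan day and replicate blocks, array weights and leaving out samples. No array pair of a group was identical (r from 0.935 to 0.993). Figures were drawn in Python with matplotlib.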

Additional observations from a re-analysis of the deposited data

Results flagged for a closer look

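Among the 27 keratins, 3 had a single OP cancer away from the other 5 OP cancers, and OP cancers were the only group large enough for such a check. Krt15 was 15.9 in replicate 4 against 15.14 to 15.35. Krt72 was 7.48 in replicate 3 against 6.66 to 6.83. Krt90 was 6.97 in replicate 6 against 6.50 to 6.67. Chance marks about 1 in 20 groups, and the 3 samples are different replicates.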

How the results depend on the processing

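Krt8, Krt18, Krt19, Krt5 and Krt33a kept their direction and passed under every alternative run. Krt15 ended only on the second scan day alone. The count of higher keratins was 6 to 9 under all alternatives and that of lower ones 9 to 17, except 2 when probes had to be above background in every group and 0 in the authors' table, which holds 10 keratins; leaving out 1 sample gave 7 to 9 higher and 10 to 13 lower. Scaling to the 75th percentile moved the median of all genes to -1.49 (processed signal) and -0.78 (normexp), and left 18.1% and 18.0% of calls higher, against 46.5%; 17 keratins were then lower, beside 66.2% and 66.7% of all genes. Under these scalings, in that order, reversed values were -0.64 and -0.35 for Krt1, -0.045 and -0.14 for Krt76, -3.24 and -0.90 for Krt39, -2.34 and -0.72 for Krt75, -3.10 and -0.90 for Krt84 and -2.43 and -0.92 for Krt90; in the authors' table Krt1 was at -0.64 and Krt76 at -0.044. Krt39 and Krt84 were not well above background in any cancer. The cause was not tested.

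In OP rats, 3 keratins were higher with slide as a block and 3 with a replicate block. Leaving out 1 sample gave 3 to 7 higher. With the 75th-percentile scalings 16 and 17 were lower. The authors' table gave 0 lower, here and in OR and LC rats. It holds 10 keratins, none of them among the 12 lower ones of the main contrast, so its 0 says nothing of those 12. In OR rats, 3 were higher with the processed signal scaled to the 75th percentile, in the authors' table, with slide as a block and with a replicate block; 14 were lower under both scalings, and 0 in the authors' table and with either block; leaving out 1 sample gave 2 to 7 higher and 0 to 5 lower. In LC rats, 17 were lower with the processed signal scaled and 0 in the authors' table, 6 to 11 when 1 sample was left out, and 4 higher and 5 lower without LC normal replicates 1 and 3. In the test of OP against LC effects leaving out 1 sample gave 0 to 3 keratins, and the matching counts of all genes are not given here.

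Krt5 relative to Krt8 reversed to -0.53 on the second scan day alone and, over samples left out in turn, ran from -0.0068 to 0.23. Krt14 relative to Krt18 passed at -1.17 with the mean of the Krt18 probes and at -1.75 on the second scan day, stood at -0.62 with the processed signal scaled and with the authors' values and at -0.58 with normexp scaled, without passing, and ran from -1.17 to -0.81 over samples left out. Krt8 with Krt18 gave r = 0.322 with the processed signal scaled, 0.393 with normexp scaled and 0.323 in the authors' table; Krt4 with Krt13 gave 0.602 with the processed signal scaled. The replicate block left 7 keratins higher and 12 lower in cancer against normal; Krt1 no longer passed (0.55, limma adjusted p = 0.0572). Signal near background limits the 12 lower keratins.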
